A study of Mus musculus with 6 samples.

Results

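The mitochondrial ribosomal protein genes were taken as every symbol that begins with Mrpl or Mrps followed by a digit in the gene count tables of mouse kidney. The rule found 77 genes among 24422 symbols, of which 48 (Mrpl) are named for the large and 29 (Mrps) for the small subunit. All 77 had enough reads to be tested. Their means ran from 363 to 3295 normalized counts, and the lowest raw count of a member in any library was 201.

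Poly-A RNA of whole C57BL/6 kidneys at postnatal day 13 was compared between 3 Control and 3 TfR1 knockout samples. The Control group carries the genotype wild type and the knockout group the genotype Tfr1f/f;SixCre, in which a floxed transferrin receptor gene is cut by a Cre active in nephron progenitors, and both received a diet with 220 ppm iron. Stroma, vessels, immune cells and the collecting duct, which grows from the ureteric bud, lie outside the Cre lineage. The study also describes receptor-positive tubule cells that escaped deletion by this age. The study's legends give the samples of each group as separate mice and the wild type controls as littermates. For another assay a legend uses WT for TfR1f/f littermates.

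The mitochondrial ribosome translates the few proteins encoded by mitochondrial DNA, all of which are core subunits of the respiratory chain and ATP synthase. Its proteins are all made in the cytosol from nuclear genes and imported, some related to bacterial ribosomal proteins and others found only in mitochondria. Cells of the proximal tubule and thick ascending limb are rich in mitochondria, and a few mitoribosomal proteins bind iron-sulfur clusters.

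The promoter windows of 3 members are printed because these genes passed the test below and have 1 annotated start each. They run from 250 bases before to 50 bases after the start (RefSeq, GRCm38.p6, written along the gene's strand), and capitals mark the ETS motif CCGGAAG or its reverse complement. The windows are chr17:35916391-35916690 (minus strand) for Mrps18b, chr9:98601630-98601929 (minus strand) for Mrps22 and chr3:87919294-87919593 (plus strand) for Mrpl24.
Mrps18b: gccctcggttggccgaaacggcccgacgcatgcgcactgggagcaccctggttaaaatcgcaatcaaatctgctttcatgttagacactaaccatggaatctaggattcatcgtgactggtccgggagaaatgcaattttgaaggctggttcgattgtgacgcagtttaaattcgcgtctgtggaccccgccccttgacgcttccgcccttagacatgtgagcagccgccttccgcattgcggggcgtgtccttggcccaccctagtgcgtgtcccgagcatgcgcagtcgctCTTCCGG
Mrps22: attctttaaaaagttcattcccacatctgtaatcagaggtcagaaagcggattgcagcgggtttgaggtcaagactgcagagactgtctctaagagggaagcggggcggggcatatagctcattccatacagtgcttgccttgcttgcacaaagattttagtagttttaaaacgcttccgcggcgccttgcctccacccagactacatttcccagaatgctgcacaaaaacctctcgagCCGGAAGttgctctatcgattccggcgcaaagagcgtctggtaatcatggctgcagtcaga
Mrpl24: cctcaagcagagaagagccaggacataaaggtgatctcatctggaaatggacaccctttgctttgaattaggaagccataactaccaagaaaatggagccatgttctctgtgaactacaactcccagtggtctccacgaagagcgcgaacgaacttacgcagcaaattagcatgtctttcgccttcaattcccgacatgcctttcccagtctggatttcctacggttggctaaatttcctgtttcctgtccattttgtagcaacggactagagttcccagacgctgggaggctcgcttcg

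Windows were found for 68 of the 77 members. A gene was counted if any of its windows held the letters. Searched on both strands, CCGGAAG, a letter pattern bound by ETS factors such as GABP, occurred in 25 of these members (36.8%). Among all 27025 genes with a window, whether or not they were tested here, it occurred in 9.93%. The core of the NRF1 motif was in 19.1% of members and 5.19% of all genes with a window. The YY1 pattern AAGATGG was in 19.1% and 7.28%. The core of the hypoxia response element, ACGTG, was in 23.5% and 21.8%. These are matches of letters and not bound sites. Of the windows shown, Mrps22 holds the ETS letters from position -11 and Mrps18b holds them on the other strand from position 44, counted from the start, while Mrpl24 holds none of the 4. Mrpl48, the other gene that passed the test, has 4 annotated starts and none of its windows is shown.

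The libraries held 16591156 to 22898008 counts, of which the members took 0.391% ± 0.00920 in Control and 0.353% ± 0.0239 in knockout kidneys (mean ± SD, n = 3). Tfrc, the targeted gene, had 5229 ± 1434 normalized counts in Control and 5640 ± 1482 in knockout kidneys (log2 fold change 0.11, SE 0.29, DESeq2 adjusted p 0.853). A sum over all exons cannot show the loss of the floxed exons, so this gene does not check the labels. Markers of kidney cells were present. Of 3 erythroid markers, Hba-a1 and Hbb-b1 were at 0 in every library. The other, Alas2, had 3090 ± 1671 normalized counts in Control and 3028 ± 2145 in knockout kidneys (mean ± SD, n = 3). In DESeq2 all 4 thick ascending limb and all 3 distal convoluted tubule markers were lower in knockout kidneys, and edgeR called 3 and 3 of them. Of 7 proximal tubule markers DESeq2 called 3 lower and 1 higher, and edgeR 1 lower and 1 higher. Of 4 collecting duct markers DESeq2 called 2 higher and 1 lower, and edgeR 1 higher. Of 5 macrophage markers 3 were higher with both tools. Of 3 stroma markers DESeq2 called 1 lower and edgeR 0, and neither tool called a podocyte or endothelial marker. Alb, a liver marker taken as a check of absent tissue, had 19.2 ± 7.72 normalized counts in Control and 290 ± 196 in knockout kidneys. Its log2 fold change was 3.91 (DESeq2 adjusted p 3.7e-08, edgeR 0.0265), and the knockout libraries held 433, 371 and 67. Apoa2, the other liver marker, was not called. The summed thick ascending limb markers ran from 45672 to 93083 normalized counts in Control and from 13059 to 24875 in knockout kidneys. The part of cell composition in the member values was not tested, and in whole kidney fewer cells of a type and less RNA per cell cannot be told apart.

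Most mitoribosomal protein genes were measured at similar levels in both groups. At an adjusted p under 0.05 (DESeq2, no fold threshold), 4 of 77 members (5.19%) differed, against 14.9% of the 16509 genes tested. Mrps18b was higher in knockout kidneys, where 7.74% of all genes were called higher. Mrpl48, Mrpl24 and Mrps22 were lower, where 7.18% of all genes were called lower. No member had both an adjusted p under 0.05 and a change of at least 2-fold, against 8.87% of all genes. At an unadjusted p under 0.05, 9 of 77 members passed, beside 4502 of the 16509 genes tested. edgeR and limma-voom, which called 6.02% and 6.15% of all genes, each called only Mrps18b among the members, and 8 of 77 passed at an unadjusted p under 0.05 in edgeR, beside 3941 of 15290 genes. DESeq2 made more false calls than its nominal rate on simulated counts with the spread of these libraries. Its calls that edgeR does not share are therefore taken as the less secure ones. The simulation changed far fewer genes than were called here, so its share of false calls does not carry over. edgeR missed some of the known changes in it, so a call that edgeR lacks does not show that a gene is unchanged.

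**Figure D1:**
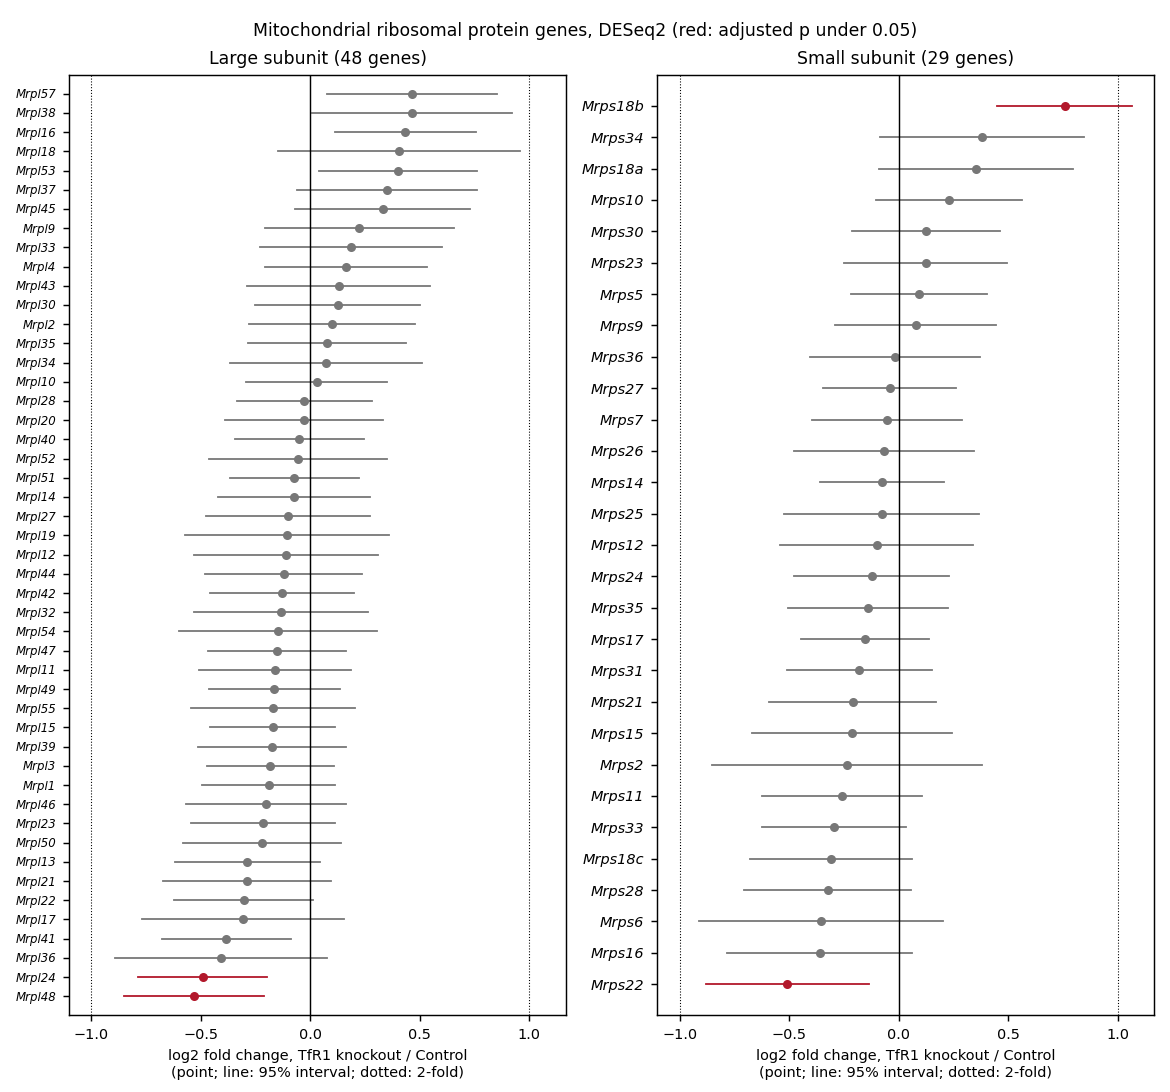
Log2 fold change of each of the 77 members, TfR1 knockout over Control, in the large (left) and small (right) subunit, with lines for the 95% interval, dotted lines at 2-fold and red for an adjusted p under 0.05 (DESeq2). Mrps18b, at 0.76, stands above the other small subunit genes, and its interval is the one that crosses the 2-fold line.

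Mrps18b encodes one of 3 mammalian relatives of a single bacterial small-subunit protein (chromosome 17, 36047324 to 36053334, mm9, minus strand, 7 exons). It had 673, 732 and 635 normalized counts in the 3 Control libraries, in the order of their replicate numbers, and 1225, 1163 and 1061 in the 3 knockout libraries. Every knockout library lay above every Control library. The level was 69.1% higher, with a log2 fold change of 0.76 (SE 0.16, 95% interval 0.45 to 1.06) and adjusted p values of 4.5e-05 in DESeq2 and 0.0221 in edgeR. It passed the test in every setting without a fold threshold and whichever library was left out. The start of Ppp1r10, a regulatory subunit of protein phosphatase 1, lies 45 bases away on the other strand, and its log2 fold change was 0.20 (DESeq2 adjusted p 0.629). Exons of Gm16279, a gene with no row in the count tables, overlap Mrps18b on the other strand, so its reads cannot be told apart here from those of Mrps18b if strand was not used in counting.

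The 2 other relatives of that bacterial protein went apart in value. Mrps18a, which sits in the large subunit despite its name, had 881, 975 and 605 normalized counts in Control and 1008, 1090.1 and 1051 in knockout libraries. Its groups did not overlap, but the log2 fold change of 0.35 did not pass the test (DESeq2 adjusted p 0.312). Mrps18c, in the small subunit, had 647, 657 and 801 in Control and 531, 637 and 532 in knockout libraries. The groups did not overlap in the lower direction, and the log2 fold change of -0.31 did not pass either (DESeq2 adjusted p 0.283).

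Mrpl48, a large-subunit protein found only in mitochondria (chromosome 7, 107694265 to 107756811, minus strand, 8 exons), had 1186, 1227 and 1428 normalized counts in Control and 929, 909.7 and 819 in knockout libraries. The groups did not overlap, and the level fell by 30.8% (log2 fold change -0.53, SE 0.16, DESeq2 adjusted p 0.0120). In edgeR the adjusted p was 0.0554. Its exons overlap those of Rab6a on the other strand, whose log2 fold change was 0.38 (DESeq2 adjusted p 0.0463, edgeR 0.111). The strand setting of the counting is not given in the sources used here, and without strand the reads of such a pair cannot be told apart. Exons of D630004N19Rik, a gene with no row in the count tables, overlap Mrpl48 on the same strand. Strand could not separate its reads from those of Mrpl48.

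Mrpl24, related to a bacterial protein that binds ribosomal RNA early in assembly (chromosome 3, 87723428 to 87727594, plus strand, 6 exons), had 1055, 1109.8 and 1060.3 normalized counts in Control and 819, 777 and 698 in knockout libraries. The groups lay apart, and the level fell by 28.9% (log2 fold change -0.49, SE 0.15, DESeq2 adjusted p 0.0114). In edgeR the adjusted p was 0.0569. Exons of Rrnad1 overlap this gene on the other strand, and its log2 fold change was -0.02.

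Mrps22, a small-subunit protein with no bacterial relative (chromosome 9, 98489152 to 98502098, minus strand, 8 exons), had 424, 427 and 429 normalized counts in Control and 342, 257 and 299 in knockout libraries. All knockout libraries were lower, and the Control libraries lay close together (427 ± 2.86, mean ± SD, n = 3). The level fell by 29.7% (log2 fold change -0.51, SE 0.19) at a DESeq2 adjusted p of 0.0498, with 0.115 in edgeR. The call was also lost without filtering of low counts, where the adjusted p was 0.0601. Leaving out knockout replicate 3 or Control replicate 1 or 2 took the calls of Mrpl48, Mrpl24 and Mrps22 away, and leaving out Control replicate 3 or knockout replicate 2 took that of Mrps22 alone. In that order, 9.44%, 7.74%, 8.11%, 14.3% and 10.9% of all genes were called, against 14.9% with all libraries.

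**Figure D2:**
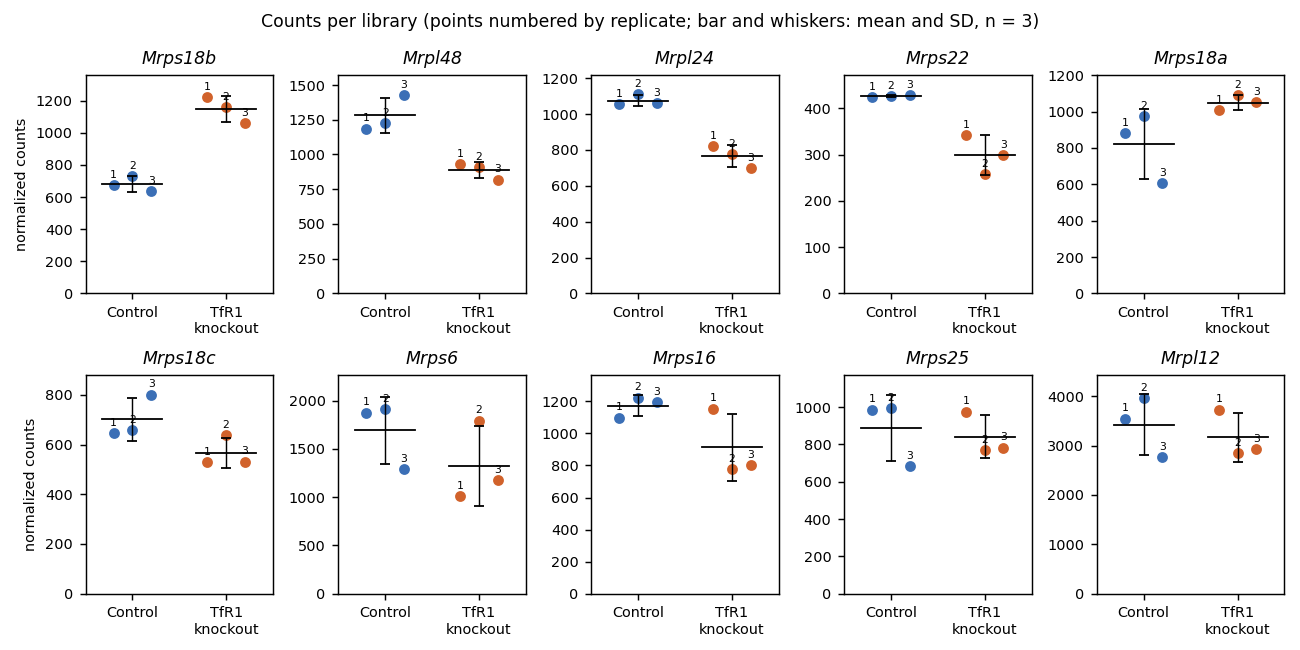
Normalized counts per library (linear axis from 0) of the 4 members that passed the test, the 5 members at iron-sulfur cluster sites and Mrpl12, with points numbered by replicate and the mean and SD in black (n = 3). Mrps18b runs from 635 to 732 in Control and from 1061 to 1225 in knockout kidneys, while the points of Mrpl12, Mrps6 and Mrps25 overlap.

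Of the 48 large subunit genes, 2 were called lower and 0 higher in DESeq2, and 7 had an unadjusted p under 0.05. edgeR called 0 and limma-voom 0, with 6 at an unadjusted p under 0.05 in edgeR. The log2 fold changes ran from -0.53 to 0.46, and 32 of 48 were below 0, beside 49.3% of all genes tested. The median was -0.11, beside 0.01 for all genes tested. The 28 genes with bacterial relatives and the 20 genes found only in mitochondria had medians of -0.11 and -0.13, with 1 call each.

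Among large subunit genes that did not pass, the lowest log2 fold changes were those of Mrpl36, a small zinc-binding protein (-0.41, DESeq2 adjusted p 0.281), Mrpl41 (-0.38, 0.0657) and Mrpl17 (-0.31, 0.415). Mrpl41 had 717, 706 and 761 normalized counts in Control and 586, 564 and 524 in knockout libraries. Its groups did not overlap, and it passed with 3 other scalings, the lowest adjusted p being 0.0271. The highest were Mrpl57 (0.46, DESeq2 adjusted p 0.0952), Mrpl38 (0.46, 0.175) and Mrpl16 (0.43, 0.0548). Mrpl16, part of the tRNA-binding region, had 627, 684 and 546 in Control and 836, 844 and 829 in knockout libraries, also without overlap. It passed with a filter of 10 counts in 3 libraries (adjusted p 0.0410) and after removing a GC trend (0.0366) or a length trend (0.0195).

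Of the 29 small subunit genes, 1 was called higher and 1 lower in DESeq2, and edgeR called the higher one alone. The log2 fold changes ran from -0.51 to 0.76, and the median was -0.10. Below 0 were 21 of 29, beside 49.3% of all genes tested. The 18 genes with bacterial relatives had a median of -0.14 and the 11 found only in mitochondria -0.07. Among those that did not pass, Mrps16 (-0.36, DESeq2 adjusted p 0.274), Mrps6 (-0.36, 0.440) and Mrps28 (-0.32, 0.276) were lowest. Mrps34 (0.38, 0.300), whose exons overlap Nme3 and Mapk8ip3, Mrps18a (0.35, 0.312) and Mrps10 (0.23, 0.395) were highest. Mrps12, at the decoding centre, had a log2 fold change of -0.10 with a 95% interval of -0.54 to 0.34.

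Names and places differ for 2 further members. Mrps30, which sits in the large subunit, had a log2 fold change of 0.12 (95% interval -0.21 to 0.46). Mrps36, now known as a part of the oxoglutarate dehydrogenase complex, had -0.01 (-0.40 to 0.37). Neither passed the test.

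The proteins at iron-sulfur cluster sites of the mammalian mitoribosome are those of Mrps6, Mrps16, Mrps18a, Mrps18c and Mrps25. None of the 5 was called by DESeq2, edgeR or limma-voom, and 0 had an unadjusted p under 0.05 in DESeq2 or edgeR. Mrps16 had 1099, 1223 and 1195 normalized counts in Control and 1155, 778 and 804 in knockout libraries. Knockout replicate 1 lay among the Control libraries, and without it Mrps16 was called lower (log2 fold change -0.57, DESeq2 adjusted p 0.0114). That library was the highest knockout library for this gene, so leaving it out enlarges the difference by itself. Without it 20.0% of all genes were called, against 14.9% with all libraries. Mrps6 had 1877, 1914 and 1292 in Control and 1007, 1794 and 1175 in knockout libraries, which overlap, and its exons overlap those of Slc5a3 on the same strand. Mrps25 had 987, 996 and 682 in Control and 976, 769 and 783 in knockout libraries, which overlap as well (log2 fold change -0.08, 95% interval -0.52 to 0.37).

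Taking all members as a set of values, the fold changes were small. The median size of the log2 fold change, whatever its sign, was 0.17, beside 0.34 over all genes tested. Among the 7913 genes within the members' range of mean counts it was 0.24, and 13.8% of those were called. For 76 of 77 members the 95% interval lay within 2-fold in either direction, the exception being Mrps18b. Over all genes tested this held for 53.8%. The median SE was 0.19 for the members and 0.27 for all genes tested, so precision enters this comparison. In direction, 53 of 77 were below 0, beside 49.3% of all genes tested, and the median was -0.11. Of the lists described further on, 60 of 80 respiratory chain subunits and 17 of 24 assembly and ribosomal RNA genes were also below 0. So were 10 of 14 translation factors and 12 of 20 aminoacyl-tRNA synthetases and partners. Below 0 were 3 of 6 mitoribosomal proteins under other names and 7 of 75 cytosolic ribosomal proteins. The Control and knockout libraries were apart for 9 members that lay higher (11.7%) and 17 that lay lower (22.1%), where 16.9% of all genes were so in each direction.

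**Figure D3:**
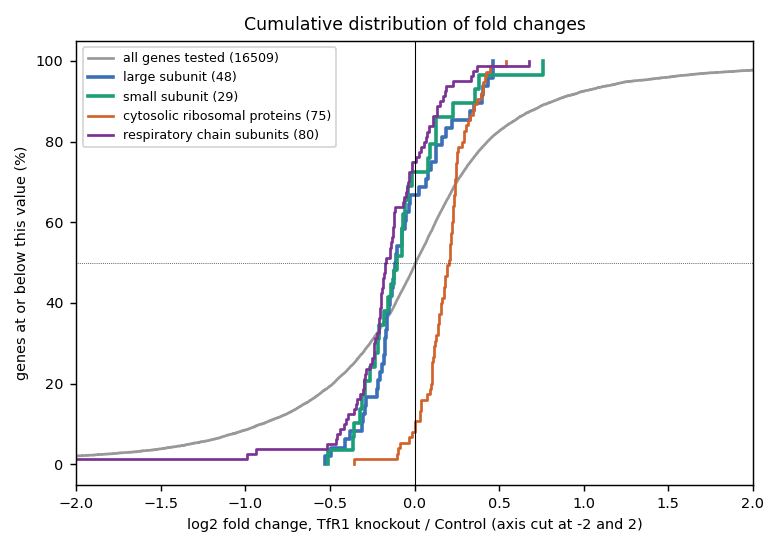
Cumulative share of genes (percent) by log2 fold change, TfR1 knockout over Control, for both subunits, 2 comparison lists and all genes tested. The subunit curves cross 50% at -0.11 and -0.10 and are steeper than the curve of all genes, and the cytosolic ribosomal proteins cross at 0.20.

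The difference between the groups was close to the spread between libraries. The median log2 level of the large subunit genes, relative to the Control mean, was 0.01, 0.08 and -0.08 in the Control and -0.01, -0.02 and -0.20 in the knockout libraries. For the small subunit it was 0.01, 0.09 and -0.11 against 0.00, -0.07 and -0.16. The group means differed by -0.08 and -0.07, and the SD within a group was 0.08 to 0.10 (n = 3). In both subunits knockout replicate 3 was lowest and the other knockout libraries lay within the Control range. Without knockout replicate 3 the medians of the fold changes were -0.038 and -0.045, and without Control replicate 3 that of the small subunit was -0.20. The sum of normalized counts over all members was 73141 ± 4557 in Control and 71118 ± 4573 in knockout kidneys (mean ± SD, n = 3). The ratio of large to small subunit counts was 1.90 ± 0.0462 and 1.93 ± 0.0131.

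**Figure D4:**
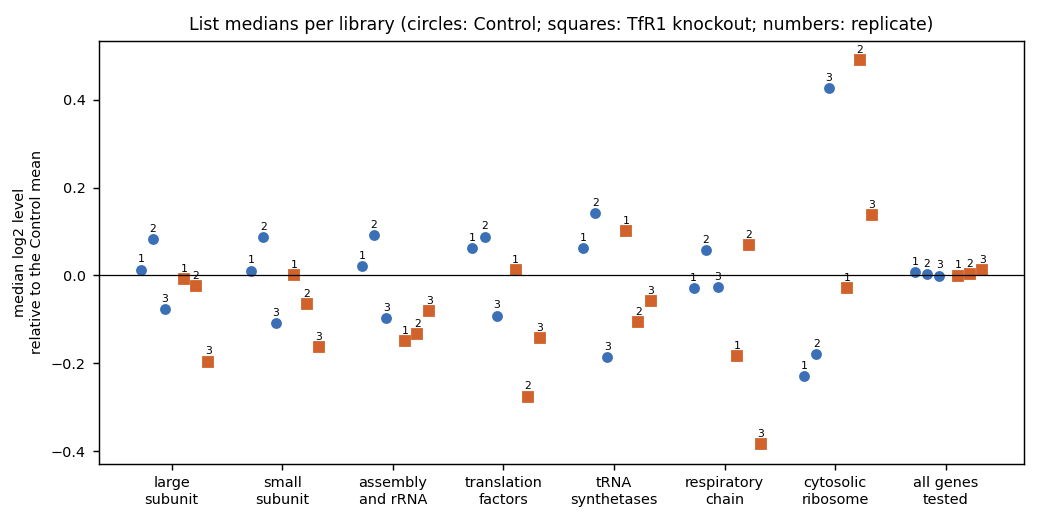
Median log2 level of each list relative to the Control mean, per library (circles Control, squares TfR1 knockout, numbers the replicate). The subunit medians overlap between groups, with knockout replicate 3 lowest at -0.20 and -0.16, and all genes tested stay near 0 in every library.

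Levels between members are compared per kilobase of transcript. The transcript used was the longest coding one tagged CCDS, else the longest tagged basic, else the longest of any. This choice sets the scale. In Control kidneys the median member had 709 normalized counts per kilobase. Mrpl42 (3141 ± 189), Mrps21 (2638 ± 116) and Mrpl12 (2602 ± 465), a protein of the ribosomal stalk, were highest. Mrps21 and Mrpl12 differed by less than the SD of Mrpl12. Mrpl19 (109.9 ± 11.3), Mrpl47 (118 ± 3.83) and Mrps25 (146 ± 29.4) were lowest, and Mrpl19 and Mrpl47 differed by less than the SD of Mrpl19. Mrpl12 had 3545, 3966 and 2761 normalized counts in Control and 3728, 2844 and 2923 in knockout libraries, and a log2 fold change of -0.11 (95% interval -0.53 to 0.31).

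**Figure D5:**
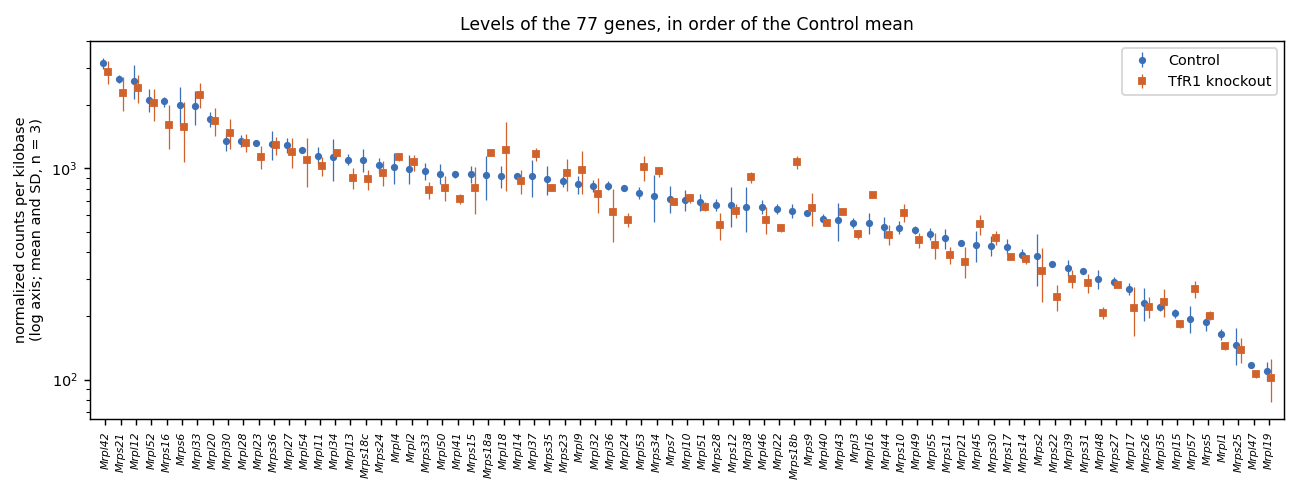
Normalized counts per kilobase of transcript (log axis; mean and SD, n = 3) of the 77 members in order of their Control mean, for Control (circles) and TfR1 knockout (squares). Levels fall from 3141 for Mrpl42 to 109.9 for Mrpl19, a wider span than any difference between the groups.

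Other genes of the pathway gave few calls in the same fit. Of 6 mitoribosomal proteins under other names, 0 were called by DESeq2, edgeR or limma-voom, with 1 at an unadjusted p under 0.05 in DESeq2 and 1 in edgeR. Of 24 genes for assembly and ribosomal RNA, 0 were called by any of the 3 tools, with 4 and 2 at an unadjusted p under 0.05 in DESeq2 and edgeR, and the median log2 fold change was -0.14. Of 14 translation factors, Mtrf1, a release factor, was called lower (log2 fold change -0.63, DESeq2 adjusted p 0.0294, edgeR 0.105). It had 189, 174 and 207 normalized counts in Control and 121, 129 and 117 in knockout libraries, without overlap. Of 20 aminoacyl-tRNA synthetases and partners, Gatb, a subunit of the enzyme that makes glutaminyl-tRNA, was called lower (-0.67, DESeq2 adjusted p 0.0311, edgeR 0.0843).

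Of 80 respiratory chain subunits tested, 4 were lower and 1 higher in DESeq2, and the median log2 fold change was -0.17. The lower ones included the muscle-type subunits of cytochrome oxidase Cox6a2 (-3.21, DESeq2 adjusted p 7.3e-06, edgeR 0.0149), Cox7a1 (-0.99, 0.00581, edgeR 0.0586) and Cox8b (-0.94, 0.0256, edgeR 0.0965). Atp5k, of the ATP synthase, was the other lower one (-0.52, 0.0175, edgeR 0.0723). Cox6a2 had 55.1 ± 25.5 normalized counts in Control and 5.93 ± 1.76 in knockout kidneys (mean ± SD, n = 3). Cox6b2 was higher (0.68, 0.0305, edgeR 0.0894). Of 75 cytosolic ribosomal proteins tested, Rps2 was called higher in DESeq2 (0.54, adjusted p 0.00585, edgeR 0.127). Their median log2 fold change was 0.20, and 7 of 75 were below 0, beside 49.3% of all genes tested. Their per-library medians ran from -0.23 to 0.43 in Control and from -0.03 to 0.49 in knockout kidneys, which overlap.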

How the data were processed

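The deposited tables hold raw counts per gene symbol. Per the labels and the study's methods, the authors called reads with CASAVA 1.8.2, trimmed them with Trimmomatic, aligned them with TopHat2 2.0.11 to mm9, kept unique alignments and counted with HTSeq, and the annotation and strand setting are not given in the sources used here. Unique counting can lower genes with near-identical copies. Groups came from the labels. Counts were fitted with DESeq2 1.42.0 in R 4.3.3 (Wald test, median-ratio size factors, Benjamini-Hochberg adjustment over all genes tested, independent filtering at 0.05), the study's tool. edgeR 4.0.16 (quasi-likelihood, TMM), limma 3.58.1 with voom, other scalings and filters, GC and length trends, a replicate block and leaving out each library were alternatives. The code was tested on simulated data. A first requirement on recovered changes was missed by edgeR and limma-voom. It was moved to a further simulated scenario after that result was seen. Genes named are all called members, the 3 highest and 3 lowest others per subunit (mean normalized count 100 or more), a preset list, the 3 highest and 3 lowest levels per kilobase, Tfrc, and up to 4 called genes of each other list. Members and lists were chosen with earlier results of these data known. Neighbouring genes and Atp5k were named after their values were seen.
Same-numbered libraries did not deviate together in all pairs (r 0.0224, 0.0408 and 0.192 over 15274 genes, which are not independent), and they were therefore not treated as pairs. The study describes its controls as littermates, but which libraries share a litter is not given in the sources used here. Litter matching under another numbering was therefore not tested. Positions came from the GENCODE annotation of mm9, matched for 22198 of 24422 symbols. Depth was 16591156 to 22898008 counts, and 3 libraries per group limit the precision. The libraries were not equally spread. On raw counts scaled to depth, Control replicates 1 and 2 gave a chi-square per degree of freedom of 10.1. The other pairs within a group ran from 35.9 to 97.6. What this closeness adds to the calls lost without either library was not tested.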

Additional observations from a re-analysis of the deposited data

How the results depend on the processing

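Mrps18b passed in every alternative except the 2-fold threshold. Members called numbered 4 in the main fit and 4 with a GC trend removed. They numbered 5 with TMM, upper-quartile or total-count scaling, a filter of 10 counts in 3 libraries or a length trend removed. They numbered 3 with no filter or filtering tuned at 0.1. With edgeR, limma-voom, the replicate block or a 1.5-fold threshold 1 was called, and 0 at 2-fold. Leaving out 1 library gave 1 to 6, with 0 to 5 lower, 0 to 3 in the large and 1 to 3 in the small subunit. The share called over all genes moved as well. It ran from 7.74% without Control replicate 1, with 1 member called, to 20.0% without knockout replicate 1, with 6. In the main fit it was 14.9%. The lower calls were 0 with edgeR, limma-voom, the block, 1.5-fold or 2-fold, and so were the large subunit calls. Mrpl41 joined the lower calls with TMM, upper-quartile or total-count scaling. Mrps22 left them with no filter, filtering tuned at 0.1 or either trend removed. The higher calls were 2 with a filter of 10 counts in 3 libraries or a GC trend removed, 3 with a length trend removed and 0 at 2-fold, and the large subunit calls were 4 with the length trend. Small subunit calls were 1 with edgeR, limma-voom, the block, no filter, filtering tuned at 0.1, either trend removed or 1.5-fold, and 0 at 2-fold. Total-count scaling moved the median of all genes to -0.10 and the large and small subunit medians to -0.21 and -0.20, while the difference between members and all genes stayed at -0.11. Without 1 library the large subunit median ran from -0.13 to -0.038 and the small one from -0.20 to -0.045. Removing the length trend gave a median of -0.05 over all members. Over all genes the calls were 2463 with DESeq2, 921 with edgeR and 941 with limma-voom. The cause of these changes was not tested. Library numbers were not taken as pairs, so a call lost under the block is not read as a weaker effect. No symbol was a pseudogene form, so leaving those out gave no other value.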

Other observations

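Some mitoribosomal protein genes start near a neighbour on the opposite strand, and whether they share a promoter was not tested. For 31 members another gene in the tables starts within 1000 bases on the opposite strand. How often this holds among all genes was not counted. Mrpl46 and Mrps11 are partners of each other, so that pair is counted from both sides. Of these partners DESeq2 called 2 higher and 4 lower, against 7.74% and 7.18% of all genes, and in 16 of 31 pairs member and partner had a log2 fold change of the same sign. Tmem63b, the partner of Mrpl14, was higher (log2 fold change 0.86, DESeq2 adjusted p 0.00334, edgeR 0.0474), while Mrpl14 had -0.07 (DESeq2 adjusted p 0.830). Exons of 23 members overlap another gene of the tables.

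The base composition of the members moved weakly with their fold changes. Across the 77 members the Spearman correlation of log2 fold change with transcript GC was 0.21, and 0.13 after the GC trend of all genes was removed. The points share the same 6 libraries and genes are not independent. The 38 members under the median GC of 51.5% had a median log2 fold change of -0.14 and the 39 others -0.07.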
